A study of Rattus norvegicus with 6 samples.

Results

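The 10 genes described here encode proteins that cap, sever or bundle actin filaments or bind actin monomers. They were chosen by symbol and were CAPG, GSN, CAPZA1, CAPZA2, CAPZB, CFL1, PFN1, TMSB4X, TMSB10 and LCP1. All 10 were found among the 17648 genes of the expression matrix. LCP1 is a filament bundler and does not fall under capping, severing or monomer binding, but it was kept as the list gave it.

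The matrix came from RNA sequencing of neurons from the spinal cord of neonatal Sprague-Dawley rats, cultured for 3 days before an excitotoxic injury with glutamate. The Glu + siR-Con group (n = 3) received a control siRNA (small interfering RNA) by transfection, and the Glu + siR-GAL3 group (n = 3) with an siRNA against galectin-3 (GAL3, listed as LGALS3). The injury protocol was 10 μM glutamate for 1 h followed by 16 h without glutamate. The comparison asked what a lower GAL3 level changes in injured neurons. Both groups received glutamate according to the study and its design text, whereas the sample labels named saline for Glu + siR-Con, so a difference in exposure cannot be told apart from the siRNA by the labels alone. The labels also called the Glu + siR-GAL3 samples a knockout, while the methods describe knockdown with an siRNA. Ara-C, which kills dividing cells, had been added to raise neuron purity. The methods say in general that data came from 3 or more independent experiments. They do not say of the sequencing that the 3 libraries of a group came from separate cultures. Every p-value thus measures the spread between these libraries, which may be technical.

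Actin filaments grow mainly at their barbed ends. The pool of free monomers and the number of open ends set how fast filaments grow. Capping proteins close barbed ends, severing proteins cut filaments into shorter pieces, and monomer-binding proteins either hold actin in reserve or hand it to growing ends. In neurons this cycle drives growth cones and dendritic spines, and in microglia and macrophages it drives ruffling, migration and phagocytosis. Several members have close relatives with a different tissue range, and these pairs are compared below within each library.

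Values are expression levels on a linear scale that the authors derived from FPKM and then corrected. FPKM counts fragments relative to transcript length and to all mapped fragments. Setting the levels of different genes side by side assumes that the correction kept them per length, which was not tested. Depth is unknown and no counting error can be given. In the targeted gene, LGALS3, the library labelled siR-GAL3 replicate 1 was at -1.64 and replicates 2 and 3 were at 32.3 and 18.5. The Glu + siR-Con libraries were at 54.4 to 77.4, so all 3 lay below the control range, at uneven levels. For LGALS3 limma gave unadjusted p = 0.0462 and adjusted p = 0.571. Its unadjusted p was 0.0059 with a block for library set, and it was under 0.05 in 3 of the 6 fits that left out a library. CDC42, the gene of the study's title, had mean levels of 71.4 ± 0.305 and 63.3 ± 3.70 (SD, n = 3 each) in Glu + siR-Con and Glu + siR-GAL3, with unadjusted p = 0.0448 and adjusted p = 0.568 in limma. The unadjusted p of CDC42 was 0.0621 with a block for library set, and it was under 0.05 in 1 of the 6 fits that left out a library. Exactly equal values tied the libraries into 3 sets, which were siR-Con 1 with siR-GAL3 1, then siR-Con 2 and 3 with siR-GAL3 3, and siR-GAL3 2 alone. Libraries within a set shared 1312 to 1463 exactly equal values other than 0, and other pairs 238 to 264. Nothing in the labels names these sets. Since siR-GAL3 replicate 2 is alone in its set, a block for library set leaves that library no part in the group difference. The block fit and the fit without that replicate thus rest on the same libraries and are not independent of each other. Where single libraries are given, their values follow the order of replicates 1, 2 and 3. No member held an exactly equal value in any pair of libraries, and no member had a value below 0.

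Among the 10 genes, LCP1, CAPG and TMSB10 were higher in Glu + siR-GAL3 with an unadjusted p under 0.05 in limma, by 75.8%, 54.3% and 38.2% of the Glu + siR-Con mean. PFN1 was also higher in all 3 Glu + siR-GAL3 libraries than in any control library but did not pass. The CapZ subunits, CFL1, GSN and TMSB4X overlapped between the groups. No member passed Benjamini-Hochberg adjustment over the 8495 genes tested, and none met the study criteria of an absolute log2 fold change above 1 with an unadjusted P < 0.05. Over all genes tested, 8.66% had an unadjusted p under 0.05, 4.41% of all genes in the higher and 4.25% in the lower direction, none had an adjusted p under 0.05 (0.0%) and 0.318% met the study criteria. The smallest adjusted p of any gene was 0.0695. The 3 members correspond to 30.0% of the list. Groups did not overlap in 4 members, all of them higher in Glu + siR-GAL3, against 20.5% of all genes, of which 10.3% higher. The log2 fold change was above 0 in 6 members and below 0 in 4, with a median of 0.13 beside a median of 0.00 and quartiles of -0.10 and 0.10 over all genes.

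**Figure D1:**
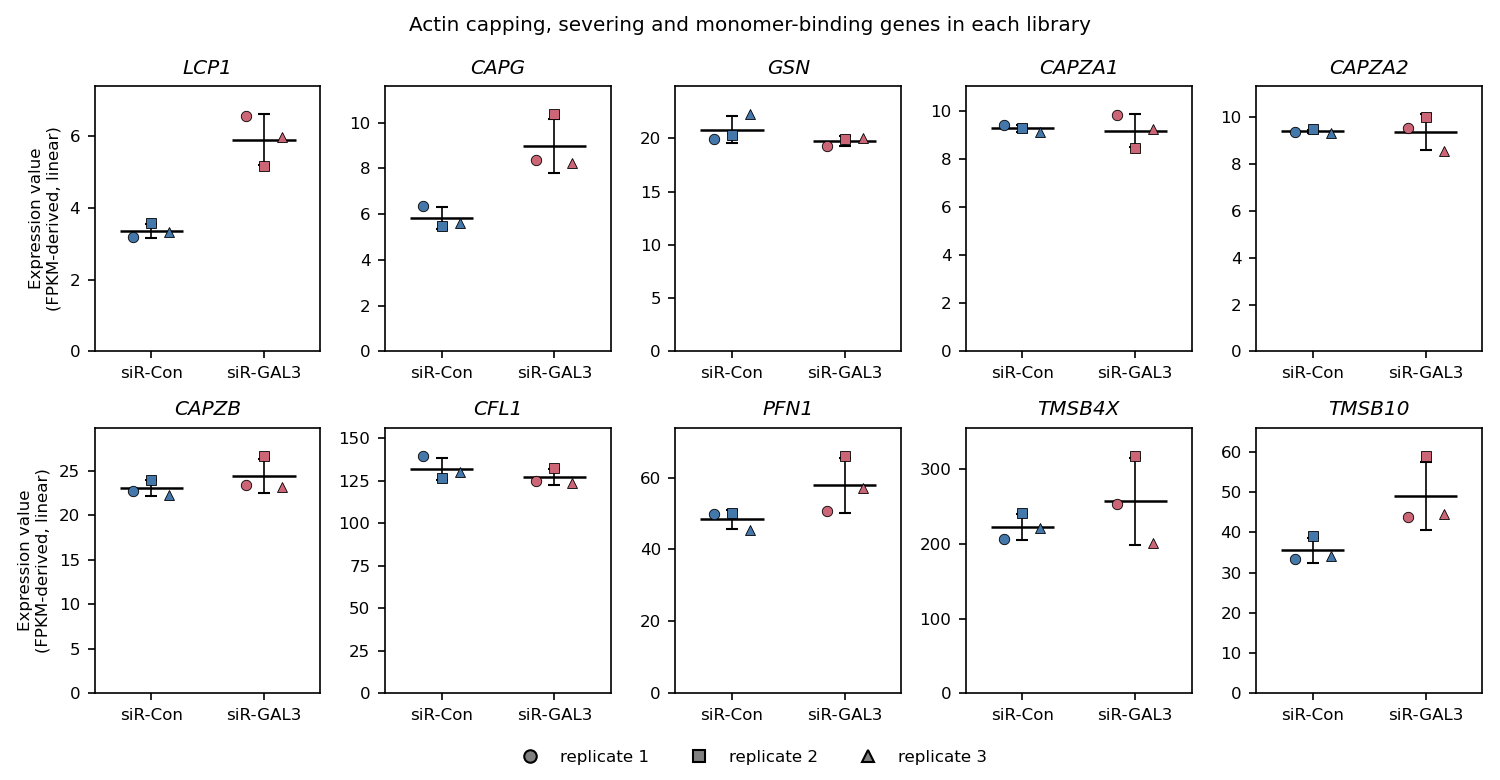
Expression value (FPKM-derived, linear scale from 0) of each of the 10 genes in the 3 Glu + siR-Con libraries (blue) and the 3 Glu + siR-GAL3 libraries (red). Symbols mark the replicate number, horizontal lines the group mean and bars the SD. LCP1, CAPG, TMSB10 and PFN1 do not overlap between the groups, and replicate 2 of siR-GAL3 is the highest library in 6 of the 10 genes.

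The members covered a wide range of levels. Averaged over the 6 libraries, TMSB4X stood highest at 239.7, followed by CFL1 at 129 and PFN1 at 53.1. TMSB10 followed at 42.3, CAPZB at 23.7 and GSN at 20.3. The lowest were CAPZA2 at 9.37, CAPZA1 at 9.24, CAPG at 7.40 and LCP1 at 4.63, so the mean of TMSB4X was 51.8 times that of LCP1. Neighbours in this order were ranked the same way in 6 of 6 libraries, except CAPZA2 above CAPZA1 in 3 of 6 and CAPZA1 above CAPG in 5 of 6. The genes with the clearest difference between the groups, CAPG and LCP1, were thus the ones with the lowest levels, and the abundant severing protein CFL1 overlapped between the groups.

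CAPG encodes the macrophage capping protein, a relative of gelsolin that closes barbed ends without severing and is abundant in macrophages. Its level was 6.37, 5.46 and 5.62 in Glu + siR-Con and 8.34, 10.4 and 8.23 in Glu + siR-GAL3. All Glu + siR-GAL3 libraries lay above all Glu + siR-Con libraries, with replicate 2 highest. The means were 5.82 ± 0.488 and 8.98 ± 1.19 (SD, n = 3 each), and limma gave a log2 fold change of 0.55 (standard error 0.10, unadjusted p = 0.0012, adjusted p = 0.171). Within the set of siR-Con 1 and siR-GAL3 1 the level was 30.9% higher, and within the set of siR-Con 2 and 3 and siR-GAL3 3 it was 48.6% higher. With the library set as a block in limma the adjusted p was 0.0302, in a fit that called 1.25% of all genes. Without siR-GAL3 replicate 2 it was 0.0228 at a log2 fold change of 0.45, in a fit that called 1.97%. This fit and the block fit rest on the same libraries.

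GSN encodes gelsolin, which severs filaments in response to calcium and then caps the new barbed end. Its level was 19.9, 20.3 and 22.2 in Glu + siR-Con and 19.3, 20.0 and 20.0 in Glu + siR-GAL3. The groups overlapped, and siR-Con replicate 3 was the highest library. The log2 fold change was -0.07 (standard error 0.07, unadjusted p = 0.347 in limma). The ratio of CAPG to GSN, which compares both relatives within a library, was 0.281 ± 0.0354 in Glu + siR-Con and 0.454 ± 0.0564 in Glu + siR-GAL3 (SD, n = 3 each). The ratios did not overlap, the log2 difference was 0.69 and the exact permutation p was 0.1, the smallest that 3 against 3 libraries can give, or 0.175 after adjustment over the 7 ratios compared.

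The 3 CapZ genes encode the main capping protein of most cells, a dimer of 1 alpha subunit (CAPZA1 or CAPZA2) with the beta subunit CAPZB. CAPZA1 ranged from 9.14 to 9.43 in Glu + siR-Con and from 8.48 to 9.82 in Glu + siR-GAL3. CAPZA2 ranged from 9.32 to 9.47 and from 8.54 to 10.0. CAPZB ranged from 22.3 to 24.0 and from 23.2 to 26.6. In all 3 genes the groups overlapped and the Glu + siR-GAL3 libraries were spread more widely. The log2 fold changes were -0.02, -0.01 and 0.08 with standard errors of 0.07, 0.08 and 0.08, and limma gave unadjusted p = 0.827, 0.934 and 0.359. CAPZA1 and CAPZA2 were present at about equal level, with a ratio of 0.990 ± 0.0145 in Glu + siR-Con and 0.988 ± 0.125 in Glu + siR-GAL3 (SD, n = 3 each, exact permutation p = 1.0). The summed alpha subunits stood at 0.813 ± 0.0254 of CAPZB in Glu + siR-Con and at 0.764 ± 0.0671 in Glu + siR-GAL3, with overlap (exact permutation p = 0.4, adjusted 0.467).

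CFL1 encodes cofilin 1, which binds ageing filaments, severs them and speeds the loss of subunits. Its level was 139, 126 and 130.0 in Glu + siR-Con and 125, 133 and 124 in Glu + siR-GAL3. The groups overlapped, with siR-Con replicate 1 highest and siR-GAL3 replicate 3 lowest. The log2 fold change was -0.05 (standard error 0.07, unadjusted p = 0.483 in limma), and it turned to 0.04 under quantile normalization. CFL2, the cofilin known from muscle, was far lower, at 7.52 ± 0.365 and 8.18 ± 0.673 (SD, n = 3 each). The ratio of CFL1 to CFL2 did not overlap between the groups in the values as deposited, at 17.5 ± 0.123 in Glu + siR-Con and 15.6 ± 0.732 in Glu + siR-GAL3 (SD, n = 3 each). Its log2 difference was -0.17, at the smallest exact permutation p of 0.1 (adjusted 0.175), but after quantile normalization it was -0.09 with an exact permutation p of 0.3.

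PFN1 encodes profilin 1, which helps monomers to exchange their nucleotide and delivers them to growing barbed ends. Its level was 49.8, 50.1 and 45.4 in Glu + siR-Con and 50.6, 65.9 and 57.0 in Glu + siR-GAL3. The groups did not overlap, but siR-GAL3 replicate 1 was barely above the highest control library. The means were 48.4 ± 2.66 and 57.8 ± 7.65 (SD, n = 3 each), 19.3% apart, and the log2 fold change was 0.24 (standard error 0.11, unadjusted p = 0.0569, adjusted p = 0.577 in limma). Within the set of siR-Con 1 the difference was 1.59%, and within that of siR-Con 2 and 3 it was 19.3%. In limma the unadjusted p was 0.0150 without siR-GAL3 replicate 1 and 0.0486 with median-ratio scaling, but 0.172 without siR-Con replicate 3. The log2 fold change was 0.15 without siR-GAL3 replicate 2 (unadjusted p = 0.0781 in limma) and 0.15 with the block for library set (unadjusted p = 0.0931). PFN2, the profilin enriched in brain, was at 7.37 ± 0.654 and 6.86 ± 1.38, and the ratio of PFN1 to PFN2 overlapped between the groups (6.62 ± 0.781 and 8.80 ± 2.94, SD, n = 3 each, exact permutation p = 0.3, adjusted 0.42).

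TMSB4X and TMSB10 encode thymosin beta 4 and beta 10, short peptides that hold actin monomers in reserve. The level of TMSB4X was 206, 241 and 221 in Glu + siR-Con and 253, 317 and 201 in Glu + siR-GAL3. The Glu + siR-GAL3 group held both the highest and the lowest library, and the groups overlapped. The means were 223 ± 17.7 and 257 ± 58.2 (SD, n = 3 each), and the log2 fold change was 0.18 (standard error 0.16, unadjusted p = 0.303 in limma). The difference was 22.6% within the set of siR-Con 1 and -13.2% within the set of siR-Con 2 and 3. Without siR-GAL3 replicate 2 the log2 fold change was 0.02, and without siR-GAL3 replicate 3 it was 0.35 with an unadjusted p of 0.0349 in limma.

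The level of TMSB10 was 33.5, 39.0 and 34.0 in Glu + siR-Con and 43.7, 58.8 and 44.6 in Glu + siR-GAL3. The groups did not overlap, and siR-GAL3 replicate 2 stood above the other two libraries of its group. The means were 35.5 ± 3.08 and 49.1 ± 8.49 (SD, n = 3 each), with a log2 fold change of 0.45 (standard error 0.13, unadjusted p = 0.0111, adjusted p = 0.395 in limma). The level was 30.7% higher within the set of siR-Con 1 and 22.1% higher within the set of siR-Con 2 and 3, and the log2 fold change was 0.31 without siR-GAL3 replicate 2 (adjusted p = 0.0897 in limma). TMSB4X stood at 6.17, 6.18 and 6.48 times TMSB10 in Glu + siR-Con, and at 5.78, 5.39 and 4.50 times in Glu + siR-GAL3. The ratio was lower in all 3 Glu + siR-GAL3 libraries, with means of 6.28 ± 0.178 and 5.22 ± 0.659 (SD, n = 3 each), a log2 difference of -0.27 and the smallest exact permutation p of 0.1 (adjusted 0.175). After quantile normalization the log2 difference of this ratio was -0.09 with an exact permutation p of 0.4, so the separation depended on the scaling.

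The TMSB10 level could share reads with near-identical copies. The rat annotation names 10 copies of TMSB10 by symbol, 5 of them pseudogenes, and 1 was a row of the matrix, LOC100364435 (Tmsb10-ps6). Its level was between 50.1% and 50.5% of that of TMSB10 in every library, and its log2 fold change was 0.43. How reads that match both were assigned is not given in the sources used here, so the share of each is uncertain. Summed with this copy, TMSB10 was 53.3 ± 4.59 in Glu + siR-Con and 73.7 ± 12.8 in Glu + siR-GAL3 (SD, n = 3 each). That was 38.1% higher, with no overlap and the smallest exact permutation p of 0.1. Because the copy stood at a near-constant share of TMSB10, the sum had to repeat its difference and is no separate result. By symbol, the annotation also names 12 copies of CFL1, 2 of TMSB4X, 1 of CAPG and 1 of CAPZA1, and none of these was a row of the matrix.

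The promoters of TMSB10 and TMSB4X are shown to set a gene without overlap between the groups beside its close relative with overlap, and that of PFN1 because it was the other monomer-binding member without overlap. Each run is the 100 bases before the RefSeq transcription start of assembly GRCr8, 5′ to 3′ on the strand of the gene, and capitals mark TATAA and GGGCGG on either strand. The spans are chr4:106569141-106569240 on the minus strand for TMSB10, chrX:30761511-30761610 on the plus strand for TMSB4X and chr10:55866588-55866687 on the minus strand for PFN1.
TMSB10: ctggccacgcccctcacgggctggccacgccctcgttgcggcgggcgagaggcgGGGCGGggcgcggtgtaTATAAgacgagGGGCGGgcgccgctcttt
TMSB4X: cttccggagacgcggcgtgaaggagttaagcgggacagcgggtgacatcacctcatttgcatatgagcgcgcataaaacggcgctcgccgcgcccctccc
PFN1: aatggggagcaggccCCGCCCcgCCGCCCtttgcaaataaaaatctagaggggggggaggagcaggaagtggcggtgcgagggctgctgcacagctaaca

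In these 100 bases TMSB10 held 1 TATAA, starting 29 bases before the transcription start, between 2 copies of GGGCGG, the core of the binding motif of the factor SP1. PFN1 held 2 copies of GGGCGG on the opposite strand, and TMSB4X held neither motif. Promoters of 300 bases (250 before and 50 after the start) were listed for 8 of the 10 members, all but CAPG and LCP1. Of these 8, 1 held TATAA on either strand (TMSB10), against 26.2% of 33469 rat promoters, and 7 held GGGCGG (all but TMSB4X), against 33.1%. GAGGAA, a core of the motif of the myeloid factor PU.1, was found in 2 of the 8 (CAPZA2 and CAPZB), against 27.6%, and the CArG box of serum response factor in none of the 8, against 1.64%. None of these motifs contains another, and a match or its absence in this window describes the sequence only.

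LCP1 encodes L-plastin, which ties filaments into tight bundles and is the plastin of blood cells and of microglia. Its level was 3.19, 3.56 and 3.32 in Glu + siR-Con and 6.56, 5.17 and 5.97 in Glu + siR-GAL3. Every Glu + siR-GAL3 library lay above every Glu + siR-Con library, and here siR-GAL3 replicate 2 was the lowest of its group. The means were 3.36 ± 0.191 and 5.90 ± 0.698 (SD, n = 3 each), and the log2 fold change was 0.66 (standard error 0.09, unadjusted p = 0.000179, adjusted p = 0.101 in limma), the 15th smallest p of 8495 genes. The level was 106% higher within the set of siR-Con 1 and 73.5% higher within the set of siR-Con 2 and 3. The adjusted p in limma was 0.0120 with the block for library set and 0.0055 without siR-GAL3 replicate 2, fits that rest on the same libraries. PLS3, the plastin of solid tissues, was at 4.82 ± 0.166 and 4.78 ± 0.453 (SD, n = 3 each), with a log2 difference of -0.01 (unadjusted p = 0.877 in limma). The ratio of LCP1 to PLS3 therefore went from 0.697 ± 0.0593 to 1.25 ± 0.228 (SD, n = 3 each), without overlap (log2 difference 0.82, exact permutation p = 0.1, adjusted 0.175).

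**Figure D2:**
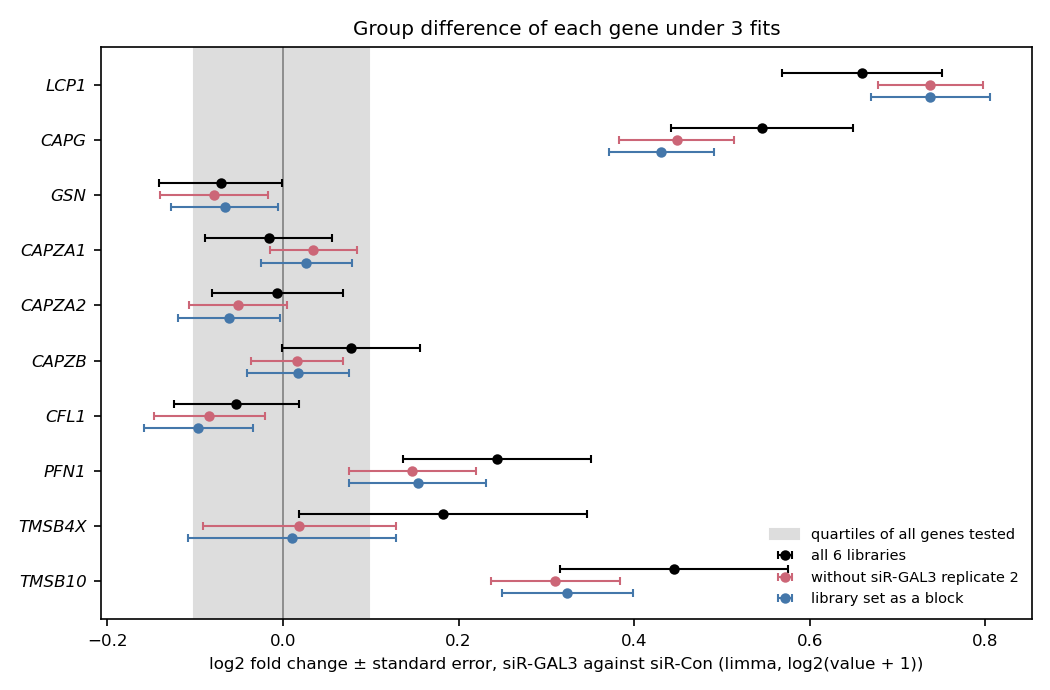
Log2 fold change of Glu + siR-GAL3 against Glu + siR-Con with its standard error for each of the 10 genes in 3 limma fits, with all 6 libraries (black), without siR-GAL3 replicate 2 (red) and with the library set added as a block (blue). The grey band spans the quartiles of all genes tested in the black fit, -0.10 to 0.10. The points of LCP1, CAPG, TMSB10 and PFN1 lie above the band in every fit. PFN1 is at 0.15 and TMSB4X falls to 0.02 and 0.01 in the red and blue fits. The red and blue fits rest on the same libraries.

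**Figure D3:**
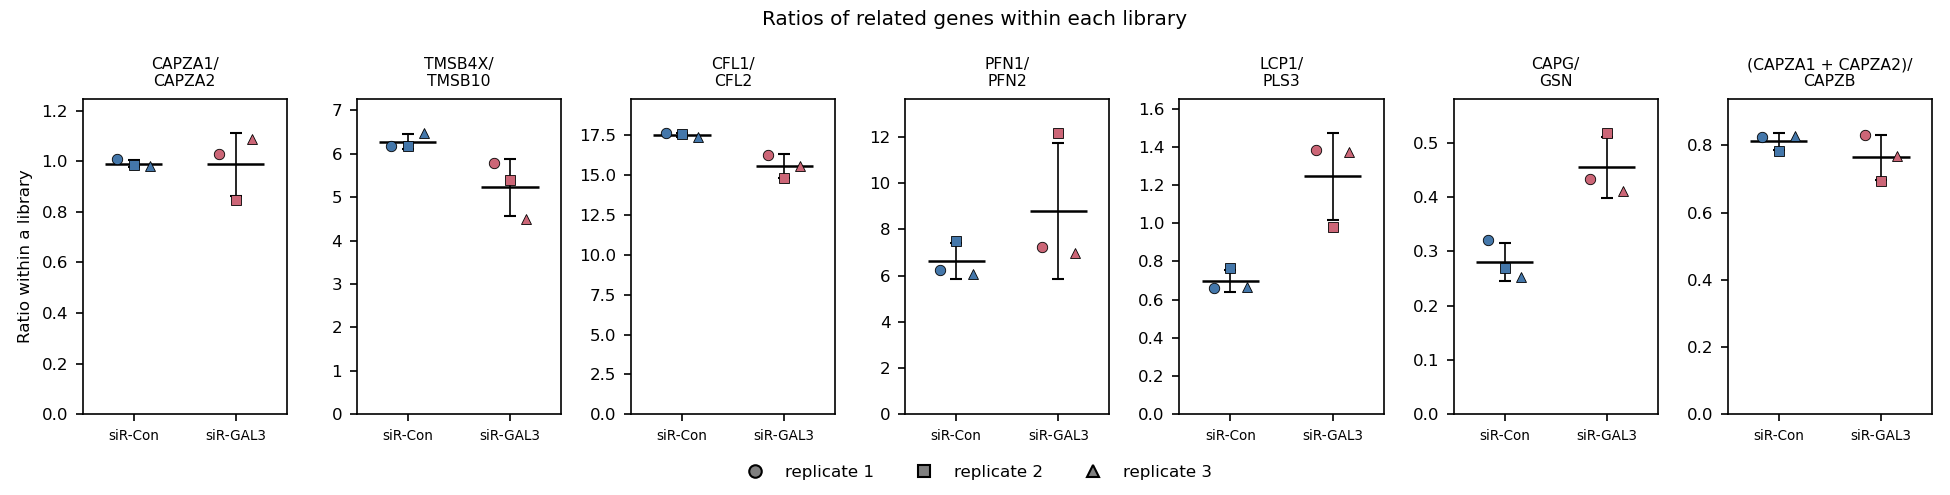
Ratio of the levels of related genes within each library, on a linear axis from 0, for Glu + siR-Con (blue) and Glu + siR-GAL3 (red). Symbols mark the replicate number, lines the mean and bars the SD. LCP1 to PLS3 and CAPG to GSN are higher, and TMSB4X to TMSB10 and CFL1 to CFL2 lower, in all 3 Glu + siR-GAL3 libraries, and the other 3 ratios overlap. After quantile normalization the exact p of TMSB4X to TMSB10 is 0.4 and that of CFL1 to CFL2 is 0.3.

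A wider list of actin regulators was examined beside the 10 genes. Of 73 other genes in 8 role groups, 68 were rows of the matrix and 46 had a mean of at least 1 and were tested. Of these, 7 had an unadjusted p under 0.05 in limma (15.2%, against 8.66% of all genes), with 5 higher and 2 lower in Glu + siR-GAL3, and none passed adjustment. The log2 fold change was above 0 in 17 and below 0 in 29, with a median of -0.04. CAPZA3, TMSB15B, FSCN1, DIAPH2 and FMN2 were not analysed here.

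The 3 genes of the cofilin cycle that passed were all higher, out of 15 tested. CORO1A, the coronin of blood cells, was 1.24 ± 0.394 in Glu + siR-Con and 3.06 ± 0.464 in Glu + siR-GAL3 (SD, n = 3 each), with a log2 difference of 0.87 (unadjusted p = 0.000471, adjusted p = 0.129 in limma). GMFG, the glia maturation factor of blood cells that undoes filament branches, was 3.00 ± 0.248 and 4.72 ± 1.23, a log2 fold change of 0.50 (unadjusted p = 0.0122 in limma). PDXP, a phosphatase that activates cofilin, was 1.05 ± 0.0858 and 1.32 ± 0.169, a log2 fold change of 0.18 (unadjusted p = 0.0433 in limma), and passed in 2 of the 6 fits that left out a library. Of the 6 bundling and crosslinking genes tested, PLS1, a plastin best known from epithelia, was higher (1.03 ± 0.0848 and 1.54 ± 0.197, unadjusted p = 0.0042 in limma) and ACTN1, the crosslinker alpha-actinin 1, was lower (2.91 ± 0.156 and 2.33 ± 0.0144, unadjusted p = 0.0082 in limma). Of the 7 formins and tandem-WH2 nucleators, FMNL1, a formin of blood cells, was higher (0.864 ± 0.0680 and 1.29 ± 0.194, unadjusted p = 0.0068 in limma). None of the 8 other barbed-end capping genes, the 2 other gelsolin family genes, the 3 other monomer-binding genes or the 2 pointed-end capping genes passed.

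The most abundant genes of these groups did not pass in the fit of all libraries. They were ADD1, FLII, GMFB, CAP1, TMOD2, MARCKS, FMNL2 and ACTB, with log2 fold changes from -0.40 in GMFB to 0.14 in MARCKS. GMFB had an unadjusted p of 0.0941 with all libraries and of 0.0285 with the block for library set in limma, and its log2 fold change was -0.15 without siR-GAL3 replicate 2. Beta-actin itself, ACTB, was 312 ± 14.4 in Glu + siR-Con and 288 ± 39.5 in Glu + siR-GAL3 (SD, n = 3 each, unadjusted p = 0.304 in limma), with siR-GAL3 replicate 2 lowest, and its value was exactly equal in siR-Con 2 and siR-GAL3 3. The summed levels of TMSB4X, TMSB10 and PFN1 relative to the summed levels of ACTB and ACTG1, a quantity formed after the data had been seen, were 0.715, 0.822 and 0.803 in Glu + siR-Con and 0.913, 1.47 and 0.749 in Glu + siR-GAL3. The groups overlapped, and siR-GAL3 replicate 2 was the only library in which these monomer binders exceeded the actins. ACTA1, the actin of skeletal muscle, was the 1 gene of the wider list that met the study criteria, at a log2 fold change of -1.98 (unadjusted p = 0.0061 in limma). Its level was 5.36, 5.97 and 0.679 in Glu + siR-Con and 0.140, 0.0683 and -0.197 in Glu + siR-GAL3, so siR-Con replicate 3 stood far below the other control libraries, and the value below 0 was set to 0 in the fit.

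**Figure D4:**
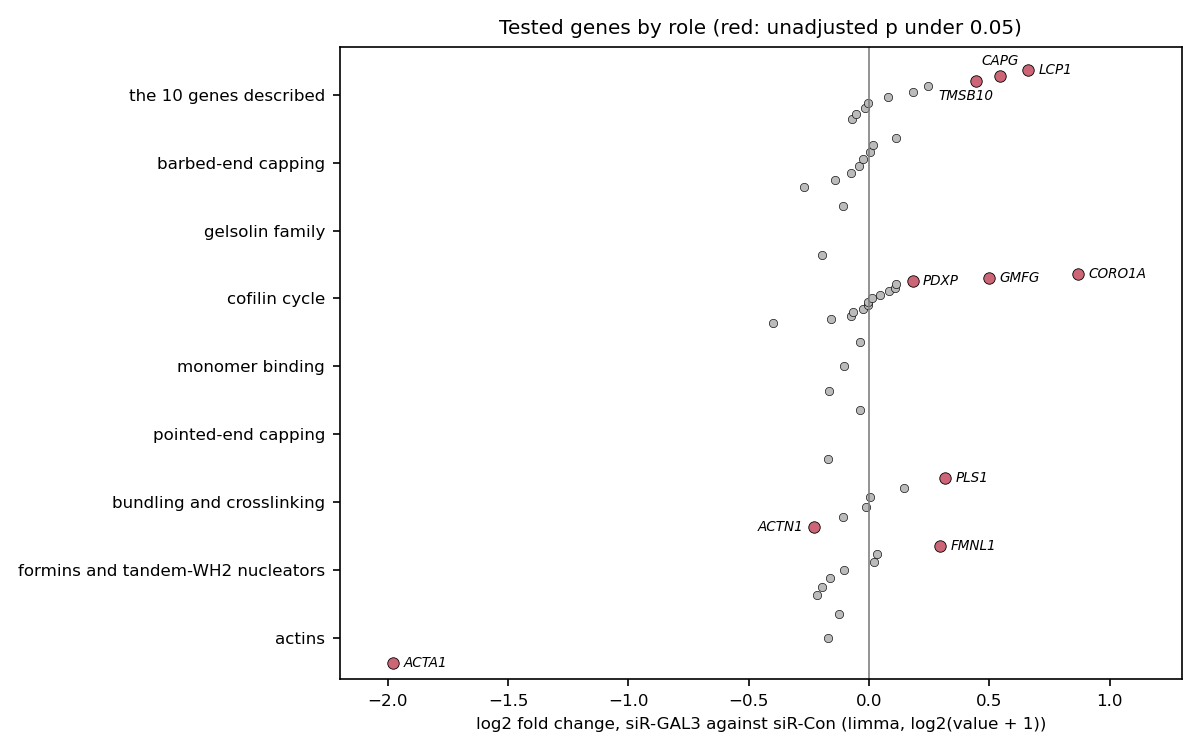
Log2 fold change of Glu + siR-GAL3 against Glu + siR-Con (limma, log2(value + 1)) for the 10 genes described and the 46 other actin regulators tested, by role group. Red points have an unadjusted p under 0.05 and are named. The named points are LCP1, CAPG, TMSB10, CORO1A, GMFG, PDXP, PLS1 and FMNL1 on the higher side, and ACTN1 and ACTA1 on the lower side.

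The labelled cell type was checked against marker genes. Of 12 neuron markers 11 were rows of the matrix, and their summed level was 41.4 to 46.3 in Glu + siR-Con and 42.7 to 47.2 in Glu + siR-GAL3. Of the 7 tested, 1 had an unadjusted p under 0.05 in limma, higher in Glu + siR-GAL3, against 8.66% of all genes in either direction. RBFOX3, which marks mature neurons, was only at 0.300 to 0.429, while MAP2, the highest neuron marker, had a mean of 16.9. By comparison GFAP, of astrocytes, had a mean of 589.6 and MBP, of oligodendrocytes, a mean of 713. These were the highest markers of their lists, and the lowest were ALDH1L1 at 3.21 and CSPG4 at 0.557. Some transcripts of glia were thus present at high levels in cultures labelled as neurons. In such bulk RNA, fewer cells of a type and less RNA per cell cannot be told apart.

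The summed microglia markers, LCP1 and CAPG were each higher in all 3 Glu + siR-GAL3 libraries than in any control library. Within the groups CAPG did not follow the sum. Among the siR-Con libraries CAPG was highest in replicate 1, where the sum was lowest (144). Among the siR-GAL3 libraries CAPG was highest in replicate 2 and the sum in replicate 1 (206). All 16 markers were rows of the matrix and none was at 0 in all libraries. Of the 15 tested, 7 had an unadjusted p under 0.05 in limma, all higher in Glu + siR-GAL3, against 4.41% of all genes in that direction. Their summed level was 144 to 173 in Glu + siR-Con and 184 to 206 in Glu + siR-GAL3, 18.2% higher without overlap. AIF1, the microglia marker IBA1, was 1.76 ± 0.0883 and 3.12 ± 0.558 (SD, n = 3 each), with a log2 difference of 0.57 (unadjusted p = 0.000946, adjusted p = 0.149 in limma). LCP1 was 2.07% ± 0.146 of the microglia sum in Glu + siR-Con and 3.07% ± 0.249 in Glu + siR-GAL3 (SD, n = 3 each), without overlap. CAPG was 3.63% ± 0.690 and 4.70% ± 0.788 of it, with overlap. These percentages were formed after the data had been seen, and the part of the microglia markers in the difference of LCP1, CAPG, CORO1A, GMFG and FMNL1 was not tested.

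Marker sums of the other cell types were lower in Glu + siR-GAL3 or overlapped. The astrocyte sum was 869.8 to 1012 in Glu + siR-Con and 752 to 813 in Glu + siR-GAL3. At an unadjusted p under 0.05 in limma, 3 of 8 markers were lower and none higher, against 4.25% and 4.41% of all genes. GFAP made up most of the difference in this sum, with means of 655 and 524 in the groups. Of the 8 markers, 5 did not pass, and SLC1A3 (0.06) and GJA1 (0.02) had log2 fold changes above 0. The sum of the 5 fibroblast and mural markers was 43.0 to 50.6 and 33.0 to 38.1. Of these, 3 were lower at an unadjusted p under 0.05 in limma, against 4.25% of all genes. DCN had a log2 fold change above 0 (0.16). The oligodendrocyte sum overlapped, at 1076 to 1140 and 1084 to 1409, and the sum of the 4 endothelial markers listed was between 1.06 and 1.24 in all libraries. The part of these sums in the values of the 10 genes was not tested.

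**Figure D5:**
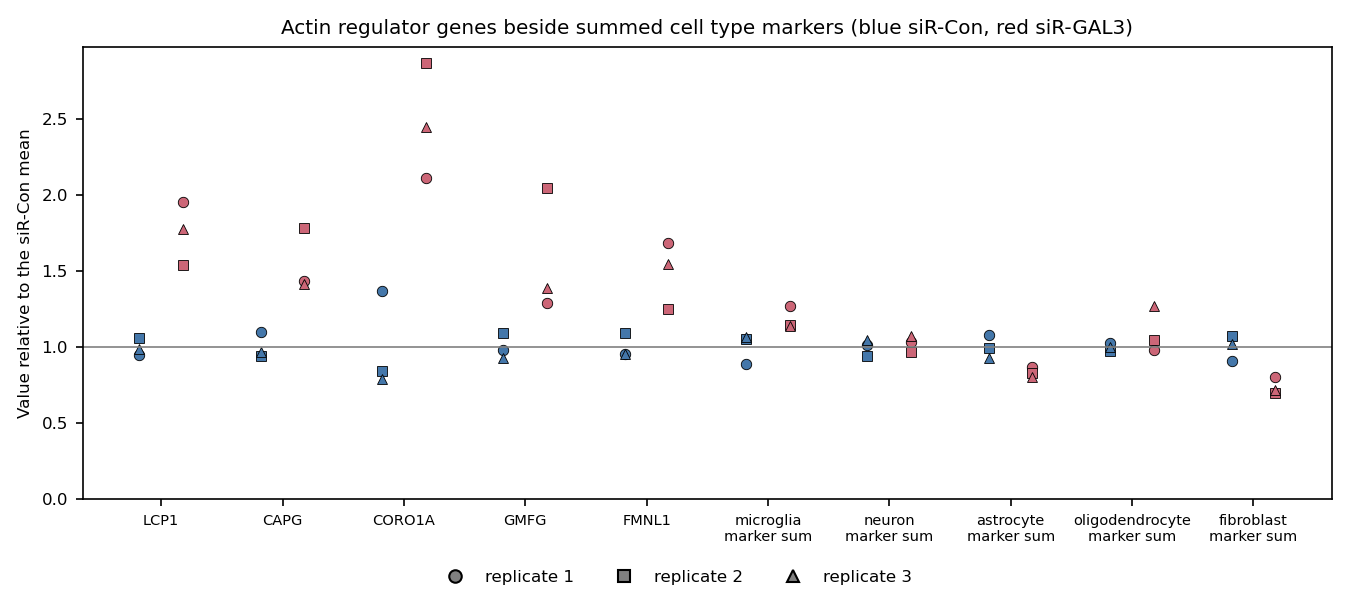
Level of LCP1, CAPG, CORO1A, GMFG and FMNL1 and summed levels of marker genes of 5 cell types in each library, divided by the Glu + siR-Con mean (linear axis from 0, line at 1). Blue symbols are Glu + siR-Con, red symbols Glu + siR-GAL3, and shapes the replicate number. The microglia sum is higher in all 3 Glu + siR-GAL3 libraries and the astrocyte and fibroblast sums are lower, while the neuron and oligodendrocyte sums overlap.

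For each member with an unadjusted p under 0.05, the 3 genes with the most similar pattern over the 6 libraries were taken from those averaging 5 or more, by Pearson correlation of log2(value + 1). For LCP1 they were GRN (r = 0.995), CD68 (r = 0.989) and FCRL2 (r = 0.982), and CD68 is one of the microglia markers. For CAPG they were CYBA (r = 0.988), TXNL1 (r = 0.988) and YWHAH (r = 0.981). For TMSB10 they were its copy Tmsb10-ps6 (r = 1.000), MAPKAPK5 (r = 0.992) and NSA2 (r = 0.990). CYBA encodes a subunit of the NADPH oxidase of phagocytes, and GRN encodes progranulin. Each r rests on 6 libraries that share the group difference and the authors' correction, and it describes these libraries only.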

How the data were processed

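Reads were aligned with STAR by the authors, who counted genes with HTSeq, computed FPKM, and then applied batch removal, standardization and a correction within groups, with the tools of these steps and the genome build not given in the sources used here. The supplement describes poly(A) selection and the labels ribosomal depletion. The deposited values are a score derived from FPKM, with 3.86% below 0 and column totals of 64313 to 64714. FPKM had been assumed when the tests were written. Because the correction acted within groups, SDs and p-values may be too small.

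Negative values became 0 (in 24 of the tested genes) before the transformation to log2(value + 1). All 8495 genes averaging 1 or more over the libraries entered a limma 3.58.1 fit with intensity trend in R 4.3.3. For low genes the fold change on this scale is too small. Adjusted p-values are Benjamini-Hochberg over all genes tested. Ratios within a library were compared by two-sided exact permutation in Python 3.11.15 (NumPy 2.4.6, SciPy 1.17.1). The fit was tested on simulated data. The members and all gene lists were chosen with earlier results of these data known. Genes named are the members, LGALS3, CDC42, the relatives in the ratios, per role group up to 4 regulators with unadjusted p under 0.05 and the most abundant one, AIF1, marker sums, and the 3 genes most alike to each member with unadjusted p under 0.05. RBFOX3, MAP2, GFAP, ALDH1L1, MBP, CSPG4, SLC1A3, GJA1, DCN and ACTG1 were added after their values were seen. Promoters came from RefSeq (GRCr8). The alternatives were another pseudocount, filter, scaling, variance model, transformation or block, genes with a value below 0 left out, and each library left out in turn. The sum of TMSB10 with its copy was added after seeing the data.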

Additional observations from a re-analysis of the deposited data

How the results depend on the processing

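Over the alternatives run, 149 of 156 member settings kept the direction and the side of the unadjusted threshold. LCP1, CAPG and TMSB10 had an unadjusted p under 0.05 in 6 of 6 fits that left out a library. With a mean of at least 10, 6 members were tested and 1 had an unadjusted p under 0.05, in place of 3, and 0 of 14 other regulators in place of 7, since fewer genes were tested. A block for the library set left 2 members (LCP1 and CAPG) past adjustment in place of 0, and the members' median log2 fold change was 0.0218 in place of 0.130. Leaving out a library gave 0 to 2 members past adjustment, 2 of them without siR-GAL3 replicate 2, and medians of 0.0266 (without siR-GAL3 replicate 2) to 0.180. The fit without siR-GAL3 replicate 2 rests on the same libraries as the block for the library set, so the 2 are not independent. Without the log, 3 members met the study criteria, which then counted expression units, against 4.32% of all genes, and the median difference was 1.95 units. The direction reversed for CFL1 under quantile normalization (0.038), for CAPZA1 under that block (0.026), and on leaving out a library for CAPZA1 (-0.061 to 0.034), CAPZA2 (-0.051 to 0.052) and the log2 ratio of CAPZA1 to CAPZA2 (-0.0832 to 0.0954). The causes were not tested. Whether replicate numbers pair the libraries could not be told. Correlations of same-numbered deviations were -0.17, -0.07 and 0.04, but the authors' correction acted within groups. By equal values, siR-Con 1 shared a set with siR-GAL3 1, and siR-Con 3 with siR-GAL3 3. With the replicate block, 3 members and 7 other regulators had an unadjusted p under 0.05 and 0 members an adjusted one, while 6.39% and 0.0706% of all genes did, which is 6 genes past adjustment in place of 0. Under that replicate block the unadjusted p in limma was 0.111 for CDC42 and 0.0327 for GMFB. Quantile normalization took the exact permutation p of TMSB4X to TMSB10 from 0.1 to 0.4 and that of CFL1 to CFL2 from 0.1 to 0.3. Depth is unknown, and 3 libraries a group limit the precision.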

Other observations

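Other genes of skeletal muscle, looked at after ACTA1 had been seen, were high in the same libraries. TNNT3, a troponin of fast muscle, was at 5.87, 6.31 and 0.652 in siR-Con replicates 1, 2 and 3 and at 0.244, 0.241 and 0.120 in siR-GAL3 replicates 1, 2 and 3. CKM, muscle creatine kinase, was at 2.02 and 2.23 in siR-Con replicates 1 and 2 and at most 0.237 in the other libraries. MYLPF, a myosin light chain of fast muscle, was at 1.83 and 1.94 in siR-Con replicates 1 and 2 and at most 0.203 elsewhere. The part of these muscle transcripts in the value of ACTA1 was not tested.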
